A study of Mus musculus with 5 samples.

Results

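The Hoxb genes are the 10 homeobox genes of the mouse Hoxb cluster, Hoxb1 to Hoxb9 and Hoxb13, which lie in a row on chromosome 11 and are all transcribed from the + strand. They make up 10 of the 21938 protein-coding genes of the GENCODE M21 annotation. Their H3K27me3 peaks were chosen by position alone, as every peak touching chr11:96169316-96393256 of the mouse genome build GRCm38, a region of 224 kb that runs from Hoxb13 to Hoxb1 with 25 kb on each side. Peaks came in 3 lists. The replicate 1 list, made with input as its control, had 116 of its 22757 peaks in the region. The IgG list, made from the same H3K27me3 library with IgG as its control, had 154 of 24881. The replicate 2 list, made with input as its control, had 79 of 33379. Values given below for all 3 are in this order.

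The peaks came from molars of wildtype C57BL/6 mice at postnatal day 3, from which the epithelium was taken off so that chromatin immunoprecipitation and sequencing (ChIP-seq) was run on the mesenchyme. All 5 libraries shared this strain, genotype and age, and they were 2 libraries with an antibody against H3K27me3, 2 input libraries of chromatin with no antibody, and 1 library with IgG, an antibody of no chosen target. There was no mutant and no treatment, so the comparisons are between genes, positions, replicates and control libraries, and none of them carries a p-value. An SD below is the spread between 2 H3K27me3 libraries, each called against its own input, and the labels do not say whether these came from separate animals.

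Hox genes encode transcription factors that give cells their position along the body axis, and within a cluster they are switched on in the order in which they lie on the chromosome. Where they are off, Polycomb repressive complex 2, with Ezh2 as its methyltransferase, places the repressive mark H3K27me3 over them, often as a broad domain over a whole cluster. The mesenchyme of the tooth comes from cranial neural crest of the jaw, a cell population that forms from a part of the head in which Hox genes are not expressed.

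After duplicate removal, replicate 1 held 30369351 tags of 49 bases and replicate 2 held 49947919 tags of 74 bases. Peaks were short in both, with a median length over the whole list of 119 bases in the replicate 1 list and 181 bases in the replicate 2 list. A domain of H3K27me3 therefore appears in these lists as a row of short peaks, and the measure used below is the covered share, which is the percentage of the bases of a gene or stretch that lie inside peaks. Depth and tag length changed together from one replicate to the other, so a difference due to either, or to the tissue, cannot be told apart.

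In 20 places of the region a stretch of DNA lay inside a peak of all 3 lists. These stretches had a median length of 115.5 bases and ranged from 10 to 335 bases. Of the 20, 6 lay within a Hoxb gene, 3 lay between Hoxb13 and Hoxb9, and 3 lay within 1 kb of the 5′ end of a Hoxb gene, namely Hoxb7, Hoxb3 and Hoxb2. The sequences of 5 of them, taken from RefSeq GRCm38.p6, are shown because these are the positions at which the replicates and the controls met, and they were taken along the cluster from the shared stretches of at least 60 bases outside annotated exons. Other stretches that met this are not shown, among them the longest, of 335 bases, and the stretch before Hoxb7. Capitals mark the dinucleotide CG, the site of DNA methylation in mammals, which reads the same on both strands.
Upstream of Hoxb13, chr11:96191815-96191960, + strand: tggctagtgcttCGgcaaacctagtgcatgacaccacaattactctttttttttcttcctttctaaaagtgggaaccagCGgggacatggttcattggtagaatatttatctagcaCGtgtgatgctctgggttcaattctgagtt
Intron of the long noncoding gene Gm53, between Hoxb13 and Hoxb9, chr11:96258196-96258275, + strand: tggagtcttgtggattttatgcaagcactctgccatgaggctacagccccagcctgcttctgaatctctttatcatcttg
Between Hoxb9 and Hoxb8, chr11:96280750-96280928, + strand: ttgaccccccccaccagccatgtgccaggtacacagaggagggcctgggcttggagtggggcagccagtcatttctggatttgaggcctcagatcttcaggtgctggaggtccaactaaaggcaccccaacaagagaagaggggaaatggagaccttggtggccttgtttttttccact
Between Hoxb5 and Hoxb4, chr11:96308109-96308379, + strand: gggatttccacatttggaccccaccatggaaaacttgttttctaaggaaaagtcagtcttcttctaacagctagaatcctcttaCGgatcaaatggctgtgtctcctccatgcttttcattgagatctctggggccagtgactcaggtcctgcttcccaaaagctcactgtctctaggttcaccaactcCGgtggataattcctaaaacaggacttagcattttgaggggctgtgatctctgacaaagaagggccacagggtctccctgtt
Between Hoxb4 and Hoxb3, chr11:96322385-96322671, + strand: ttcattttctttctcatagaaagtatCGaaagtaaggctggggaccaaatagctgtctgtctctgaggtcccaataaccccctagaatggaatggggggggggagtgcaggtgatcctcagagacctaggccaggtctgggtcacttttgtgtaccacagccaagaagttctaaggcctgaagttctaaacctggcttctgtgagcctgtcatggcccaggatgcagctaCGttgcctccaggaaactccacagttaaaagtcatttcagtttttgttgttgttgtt

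The stretches in the Gm53 intron and between Hoxb9 and Hoxb8 held no CG, those between Hoxb5 and Hoxb4 and between Hoxb4 and Hoxb3 held 2 each, and the stretch upstream of Hoxb13 held 3. A CG was present in 14 of the 20 shared stretches. Among windows of 115 bases, 71.4% of those in the Hoxb region and 56.9% of those on the whole of chromosome 11 held a CG. The stretches ranged from 10 to 335 bases, and a longer one has more places for a CG, so these shares are not at a like measure. Bases in all 3 lists had a CpG observed over expected ratio, the number of CG set against the number expected from the C and G content, of 0.239, compared with 0.339 for bases in both replicates and 0.326 over the whole region. By this ratio, places shared by all lists were no richer in CG than the DNA around them.

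The stretch between Hoxb9 and Hoxb8 was the only 1 of the 20 at which the fold enrichment, the pileup of tags over that of the control with a pseudocount added to both, reached 3 in every list. It was 3.47 in the replicate 1 list, 3.63 in the IgG list and 3.11 in the replicate 2 list. Its middle lay 1066 bases before the 5′ end of Hoxb8. By comparison, the stretch in the Gm53 intron had fold enrichments of 2.69, 2.67 and 3.05 in the same order of lists. The stretch upstream of Hoxb13 had 2.65, 2.62 and 2.51.

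**Figure D1:**
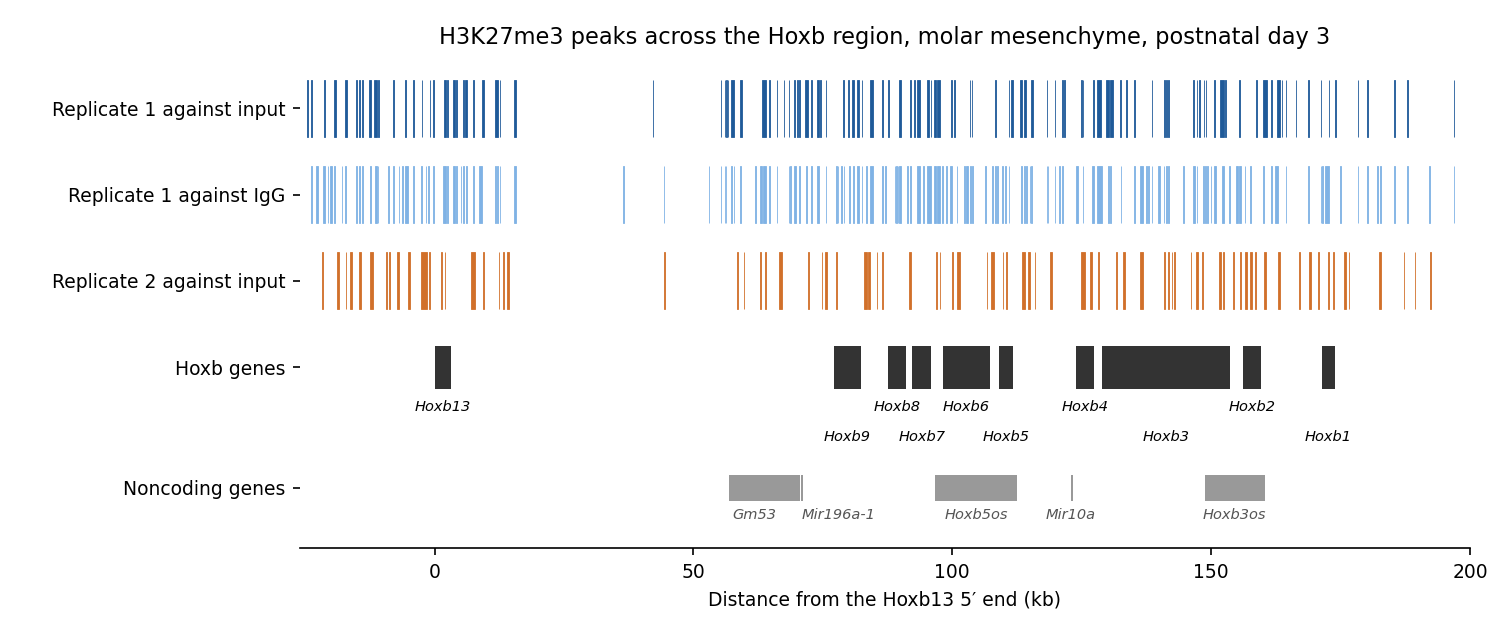
Peaks of the 3 lists across the Hoxb region, as bars at their positions in kb from the 5′ end of Hoxb13, above the 10 Hoxb genes (black) and the longer noncoding genes and miRNA genes (grey). In each list peaks crowd around Hoxb13 and again from about Gm53 to Hoxb1, with few peaks in the 40 kb from 15 to 55 kb.

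Peaks were dense over the cluster. The covered share of the region was 12.1% in the replicate 1 list, 14.0% in the IgG list and 9.56% in replicate 2, which gave 10.8% ± 1.78 (SD, n = 2). Over the sequenced genome the covered share was 0.113%, 0.126% and 0.245% in the same order of lists. The region was therefore covered 107 times, 111 times and 39.0 times as much as the genome. The median distance between neighbouring peaks was 1103 bases in the replicate 1 list, 759 bases in the IgG list and 1612 bases in replicate 2, whereas over the whole lists it was 37.4 kb, 30.6 kb and 46.4 kb.

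Single peaks of the region were low, as in the rest of each list, but longer. In replicate 1 against input, the median peak length in the region was 174.5 bases and the median fold enrichment was 2.75, compared with 119 bases and 2.63 over the list. The region's peaks in replicate 2 had a median length of 249 bases and a median fold enrichment of 2.51, compared with 181 bases and 2.45. A fold enrichment of 3 or more was reached by 14.7% of the region's peaks in the replicate 1 list, 18.8% in the IgG list and 5.06% in replicate 2, compared with 8.96%, 10.7% and 1.56% of all peaks. Peaks at the lowest pileup of their list made up 18.1%, 9.74% and 21.5% of the region's peaks, compared with 44.5%, 35.1% and 37.9% of all peaks. These lists rest on few tags per peak, and the highest fold enrichment in the region was 4.65, at a peak in an intron of Hoxb3 called against IgG.

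The cluster had 4 sections by peak density, which were drawn at the edges of 5 kb windows after the window values had been seen. From 25 kb before to 15 kb after the 5′ end of Hoxb13, the covered share was 16.1% in the replicate 1 list, 19.6% in the IgG list and 16.04% in replicate 2. From 15 to 55 kb it was 1.09%, 1.64% and 0.318%. From 55 kb to just past the 3′ end of Hoxb1, which takes in Gm53 and the other 9 Hoxb genes, it was 16.2%, 18.0% and 11.5%. Over the last 23.9 kb, past Hoxb1, it was 3.00%, 5.25% and 4.37%. The Hoxb genes thus lay in 2 covered sections, with Hoxb13 alone in the first and the remaining 9 genes in the second.

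Between these covered sections the peaks were few. The quiet section held 2 peaks in the replicate 1 list, 4 in the IgG list and 1 in replicate 2, compared with 27, 36 and 19 in the section of the same length around Hoxb13. The longest run of bases outside every peak of all 3 lists measured 20.8 kb, chr11:96209991-96230779, and began 12.5 kb past the 3′ end of Hoxb13 and ended 40.7 kb before Hoxb9. Repeat-masked bases made up 49.3% of the quiet section, compared with 18.6% around Hoxb13 and 17.5% from Gm53 to Hoxb1, and only uniquely mapped reads were used for peak calling. Among bases outside repeats, the covered share of the quiet section was 0.878%, 2.12% and 0.627%, compared with 15.8%, 19.1% and 16.1% around Hoxb13. With so few bases of the quiet section covered in total, its share outside repeats could only be low. The part of repeats, mapping or base composition in the low cover was not tested.

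The whole intergenic stretch from Hoxb13 to Hoxb9, 74.0 kb long, therefore joined covered ends to an uncovered middle. It held the midpoints of 29 peaks in the replicate 1 list, 33 in the IgG list and 14 in replicate 2, and its covered share was 9.13%, 8.15% and 4.65%, or 6.89% ± 3.17 (SD, n = 2). The other 8 intergenic stretches of the cluster, 38.9 kb together, had a covered share of 17.6%, 20.04% and 13.9%. The 10 gene bodies together had 14.8%, 18.5% and 11.6%. Outside the long stretch, cover was thus no lower between the genes than within them, although single short stretches ranged from 7.50% between Hoxb8 and Hoxb7 to 44.2% between Hoxb4 and Hoxb3 in the replicate 1 list.

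**Figure D2:**
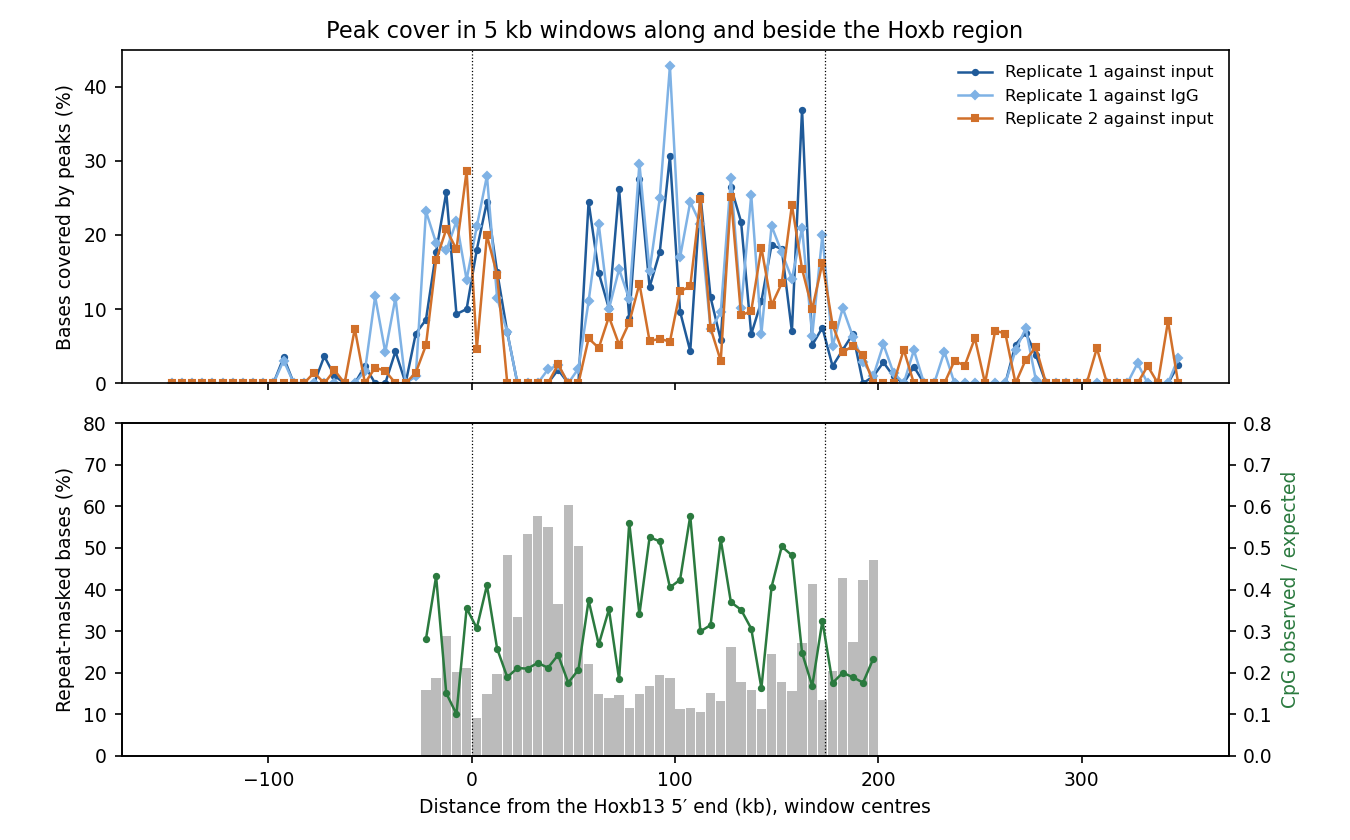
Covered share in 5 kb windows by list, along the Hoxb region and about 150 kb on each side, against the distance in kb from the Hoxb13 5′ end (top), and the repeat-masked share (grey bars) and CpG observed over expected ratio (green line) of the 45 windows of the Hoxb region (bottom). Dotted lines mark the Hoxb13 5′ end and the Hoxb1 3′ end. Cover falls in the repeat-rich windows from 15 to 55 kb and beyond both ends of the region.

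Of the 45 windows of 5 kb in the region, 38 held a peak in the replicate 1 list (3.74% of the 529094 windows of the genome), 41 in the IgG list (3.98%) and 37 in the replicate 2 list (6.16%). Both replicates had a peak in 36 windows, or 80%, compared with 0.583% of genome windows. A further 3 windows held a peak in 1 replicate, and 6 in neither. The 36 windows had a median CpG observed over expected ratio of 0.333 and a median repeat-masked share of 17.2%, and the 6 windows without a peak had 0.211 and 54.2%. Genome windows had medians of 0.165 and 28.6%. Across the 45 windows the covered shares of the replicates had a Pearson r of 0.49 and a Spearman rho of 0.62, and the mean covered share had an r of -0.61 with the repeat-masked share and 0.28 with the CpG ratio. These are descriptions over neighbouring windows of 1 region, which share their libraries and base composition.

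Cover reached past Hoxb13 but not far past Hoxb1. The 25 kb upstream of Hoxb13 had a covered share of 14.3% in the replicate 1 list, 19.2% in the IgG list and 17.8% in replicate 2, or 16.05% ± 2.52 (SD, n = 2). By contrast, the 25 kb downstream of Hoxb1 had 3.56%, 5.48% and 4.18%, or 3.87% ± 0.438. The 100 kb beyond the region had 0.929% ± 0.202 on the Hoxb13 side and 1.49% ± 0.566 on the Hoxb1 side. The side of Hoxb13 that faces away from the cluster was thus about as covered as the stretch from Hoxb9 to Hoxb1, which had 14.3% ± 2.35, and the difference between the 2 flanks was larger than the spread between replicates.

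The nearest protein-coding genes outside the region carried little of this cover. On the Hoxb13 side, Ttll6, which encodes an enzyme that adds glutamate chains to tubulin, had covered shares of 2.07%, 3.60% and 1.505% in the 3 lists, Calcoco2, an autophagy receptor, had 0.769%, 0.676% and 0.314%, and Atp5g1, a subunit of the ATP synthase, had no peak. On the Hoxb1 side, Skap1, an adaptor protein of T cells, had 1.14%, 1.23% and 0.918%, with a peak 751, 631 and 100 bases from its 5′ end. Snx11, a sorting nexin, and Cbx1, a heterochromatin protein, had no peak in any list.

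Each Hoxb gene was then taken with 5 kb on each side. Neighbouring genes lie closer than this and share peaks, so their values are not independent. All 10 had peaks in both replicates, as had 15.7% of all protein-coding genes, 3439 in number. Ranked by mean covered share among those 3439 genes, Hoxb2 had rank 1 and Hoxb13 rank 2, 7 Hoxb genes were in the top 20, and the lowest, Hoxb1, had rank 71. These ranks take in the flanks, and over gene bodies alone the mean of Hoxb13 was 9.74%, below 7 other members, and that of Hoxb4 was highest at 22.97%. The median covered share of the 10 genes was 17.3% in the replicate 1 list, 18.7% in the IgG list and 13.4% in replicate 2, whereas the median over all protein-coding genes was 0% in each list.

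**Figure D3:**
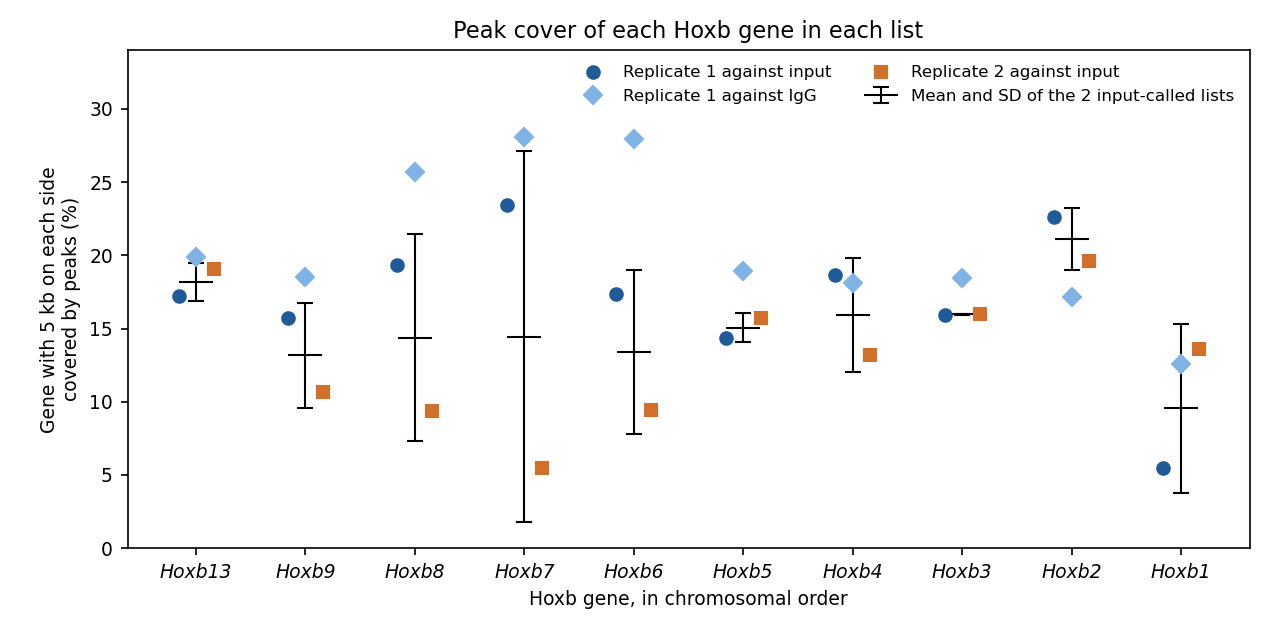
Covered share of each Hoxb gene with 5 kb on each side, in percent, by list, with the mean and SD of the 2 input-called lists (n = 2) in black. The input-called lists lie close together for Hoxb13, Hoxb5 and Hoxb3. They lie far apart for Hoxb8, Hoxb7 and Hoxb6, where replicate 2 is lowest, and for Hoxb1, where the replicate 1 list is lowest.

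Hoxb13, chr11:96194316-96197447, is the most posterior gene of the cluster, active in the tail and later in the prostate. Its covered share was 17.3% in the replicate 1 list, 19.9% in the IgG list and 19.1% in replicate 2, with 11, 13 and 6 peaks. Most of these peaks lay in its flanks, which held 9 of the 11, 11 of the 13 and 4 of the 6. Its mean of 18.2% ± 1.29 (SD, n = 2) had a small spread, and it stands 74.0 kb from the next Hoxb gene.

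Hoxb9 to Hoxb6 act in the trunk, where Hoxb9 shapes the ribs and Hoxb8 also takes part in blood cell formation. Hoxb9, chr11:96271457-96276595, had a covered share of 15.7% in the replicate 1 list, 18.5% in the IgG list and 10.6% in replicate 2. Hoxb8, chr11:96281905-96285315, had 19.4%, 25.7% and 9.36%. Hoxb7, chr11:96286623-96290162, which is active in the ureteric bud of the kidney, had 23.4%, 28.1% and 5.47%, so that the gene with the highest share in replicate 1 had the lowest in replicate 2. In Hoxb6, chr11:96292476-96301569, the shares were 17.3%, 28.0% and 9.44%. All 4 genes were thus more covered in replicate 1 than in replicate 2, and against IgG more than against input, with means of 13.2% ± 3.60, 14.4% ± 7.08, 14.4% ± 12.7 and 13.4% ± 5.58 (SD, n = 2) for Hoxb9, Hoxb8, Hoxb7 and Hoxb6.

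In 3 of these 4 genes the replicates differed more over the gene body alone. The body of Hoxb7 was covered at 35.6% in the replicate 1 list and 43.7% in the IgG list, with no peak in replicate 2. That of Hoxb8 had 12.6% and 15.2%, also with no peak in replicate 2, and that of Hoxb9 had 22.8%, 24.3% and 1.38%. The body of Hoxb6 did not follow, with 6.52%, 15.4% and 8.74%. In the opposite direction, the bodies of Hoxb4, Hoxb2 and Hoxb1 had 12.7%, 3.47% and 1.84% in the replicate 1 list and 33.3%, 31.2% and 21.8% in replicate 2. Over the 10 bodies, 6 were more covered in replicate 1 and 4 in replicate 2, and for single bodies the replicates placed the peaks differently.

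Hoxb5 to Hoxb3 act further forward, from the neck to the hindbrain, with Hoxb4 also known for its role in blood stem cells. Hoxb5, chr11:96303336-96306121, had a covered share of 14.4% in the replicate 1 list, 18.9% in the IgG list and 15.8% in replicate 2, or 15.1% ± 0.973 (SD, n = 2). The shares of Hoxb4, chr11:96318267-96321638, were 18.7%, 18.1% and 13.2%, or 15.9% ± 3.89. Hoxb3, chr11:96323326-96347930, is the longest gene of the cluster at 24.6 kb and had 15.9%, 18.4% and 16.004%, or 15.97% ± 0.0450. Hoxb3 also held the most peaks, with 22, 30 and 20 in the 3 lists, of which 12, 17 and 9 lay in introns.

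Hoxb2 and Hoxb1 are the anterior genes of the cluster and pattern the hindbrain and its facial motor neurons. Hoxb2, chr11:96350525-96354012, had a covered share of 22.6% in the replicate 1 list, 17.2% in the IgG list and 19.6% in replicate 2, or 21.1% ± 2.13 (SD, n = 2). Hoxb1, chr11:96365752-96368256, had 5.48%, 12.5% and 13.6%, or 9.56% ± 5.77. Hoxb1 was the only member besides Hoxb5, Hoxb13 and Hoxb3 with more cover in replicate 2 than in the replicate 1 list.

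In the order of mean covered share, Hoxb2 was followed by Hoxb13, Hoxb3, Hoxb4, Hoxb5, Hoxb7, Hoxb8, Hoxb6, Hoxb9 and Hoxb1. Of the 9 neighbouring pairs in this order, only Hoxb2 with Hoxb13, at a difference of 2.95 percentage points, and Hoxb13 with Hoxb3, at 2.20, differed by more than the larger of their SDs. The lead of Hoxb2 over Hoxb13 depended on the setting. With replicate 2 reduced to the peak number of replicate 1, Hoxb2 had 17.8% and Hoxb13 18.2%. With the IgG list in place of the replicate 1 list they had 18.4% and 19.5%. Hoxb13 was also ahead at a fold enrichment of 3 or more, and Hoxb2 in the remaining settings. From Hoxb3 to Hoxb9 the steps were at most 0.979 percentage points. The distance from the highest to the lowest member, Hoxb2 to Hoxb1, was 11.6 percentage points, more than their own SDs of 2.13 and 5.77. It was less than the SD of 12.7 of Hoxb7, the largest of any member. No order along the chromosome could be read from these values.

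A peak lay within 1 kb of the 5′ end of 9 Hoxb genes in the replicate 1 list, compared with 3.87% of all protein-coding genes. Against IgG it was 10 genes (4.52% of all), and in replicate 2 also 10 (4.16% of all). In both replicates it was 9 genes (1.04% of all), and the same count held for all 3 lists (0.784% of all). With the IgG list in place of the replicate 1 list, 10 genes had such a peak in both (1.29% of all), as they had within 5 kb in both input-called lists (4.31% of all). The missing gene was Hoxb9, whose nearest peak lay 1517 bases before its 5′ end in the replicate 1 list, 445 bases after it in the IgG list and 486 bases after it in replicate 2.

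In the input-called lists these peaks lay near the 5′ ends and not on them. In replicate 1 against input, the nearest peak was between 52 bases, at Hoxb8, and 1517 bases, at Hoxb9, away, and in replicate 2 between 242 bases, at Hoxb2, and 948 bases, at Hoxb8. No Hoxb 5′ end lay inside a peak of either. These lists covered 12.1% and 9.56% of the region, so few of 10 positions would lie inside peaks at that share. The count says little for this reason, and the share over all protein-coding genes is not given here. Against IgG, the 5′ ends of Hoxb6 and Hoxb4 lay inside peaks. That list covered 14.0% of the region, so the same limit holds for its count. Within 500 bases, a peak was present at 5 genes in the replicate 1 list (2.00% of all protein-coding genes), 10 in the IgG list (2.56% of all) and 3 in replicate 2 (2.36% of all). Hoxb7 alone had one in both replicates, compared with 0.328% of all genes. Its nearest peak ended 331 bases before the 5′ end in replicate 1 and 337 bases before it in replicate 2. With peaks of a fold enrichment of 3 or more, Hoxb8 alone kept a peak within 1 kb in both replicates (0.00912% of all genes), and the same gene was left at a −log10 p of 3 or more (0.0273% of all genes).

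**Figure D4:**
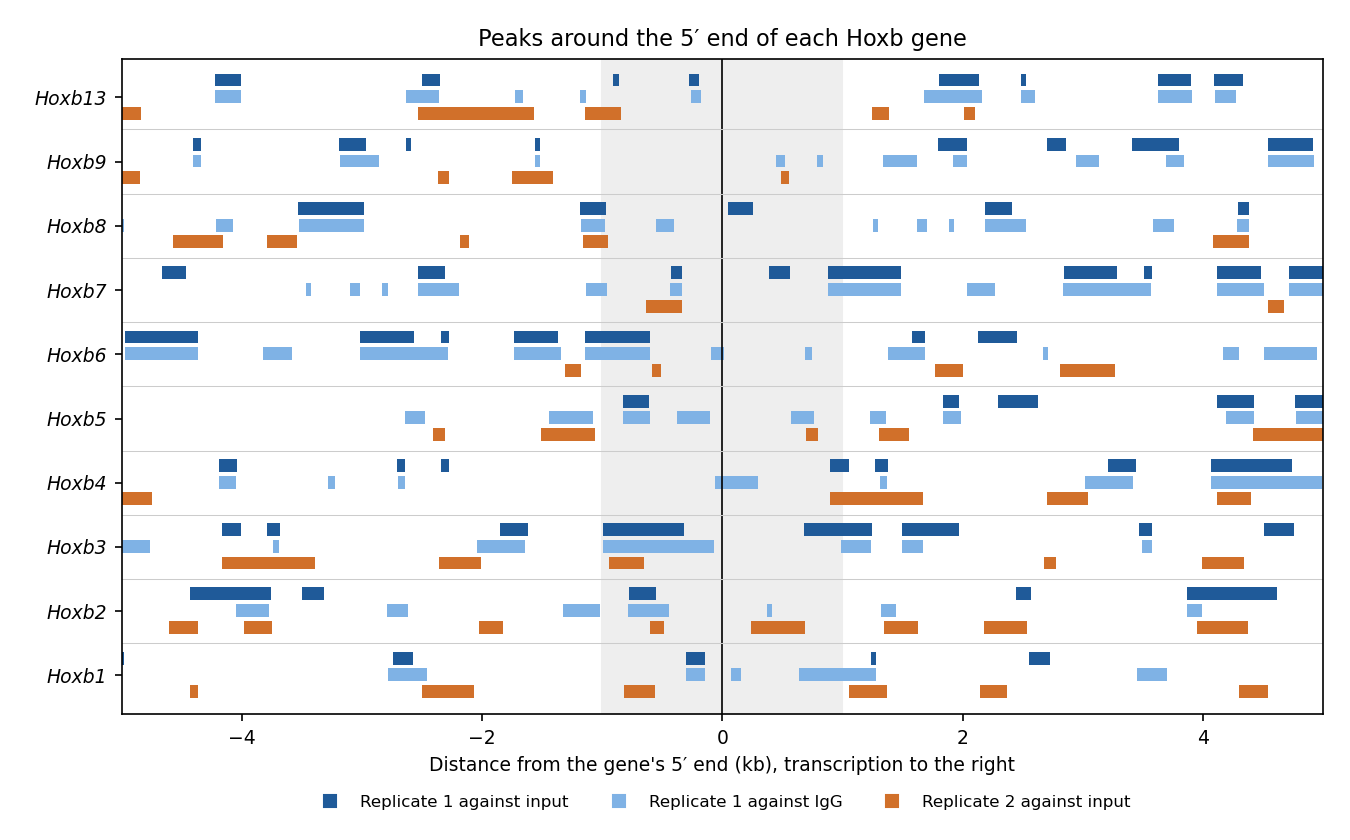
Peaks within 5 kb of the 5′ end of each Hoxb gene, as bars in kb from that end, in the 3 lists, with the 1 kb on each side shaded. Peaks of the input-called lists stand beside the 5′ ends, and peaks called against IgG cross those of Hoxb6 and Hoxb4.

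By distance from the 5′ ends of the 10 genes, the covered share within 500 bases was 8.33% in the replicate 1 list, 18.7% in the IgG list and 4.53% in replicate 2. From 500 to 1000 bases it was 20.3%, 23.3% and 15.1%. From 1000 to 2000 bases it was 15.1%, 24.2% and 18.6%, and from 2000 to 5000 bases 18.5%, 19.8% and 13.5%. Against input, the mean within 500 bases of 6.43% ± 2.69 (SD, n = 2) lay below the 17.7% ± 3.63 of the next distance by more than either SD. In the IgG list, from the same H3K27me3 library as the replicate 1 list, these were 18.7% and 23.3%, so the size of the drop changed with the control library. Over all protein-coding genes the same distances had means of 0.369%, 0.428%, 0.408% and 0.307%. In the means against input, a lower share within 500 bases was not particular to the Hoxb genes. Within 500 bases and from 500 to 1000 bases, these means were 8.02% ± 0.899 and 14.7% ± 2.66 for Hoxa genes. For Hoxc genes they were 7.76% ± 3.90 and 13.4% ± 3.92, and for Hoxd genes 5.44% ± 2.20 and 12.5% ± 6.74. The Hoxd difference lay in replicate 2, with 3.885% and 17.2%, whereas the replicate 1 list had 6.99% and 7.70%. In the IgG list the 2 shares were 15.6% and 15.8% for Hoxa, 14.9% and 17.1% for Hoxc, and 11.4% and 9.30% for Hoxd.

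**Figure D5:**
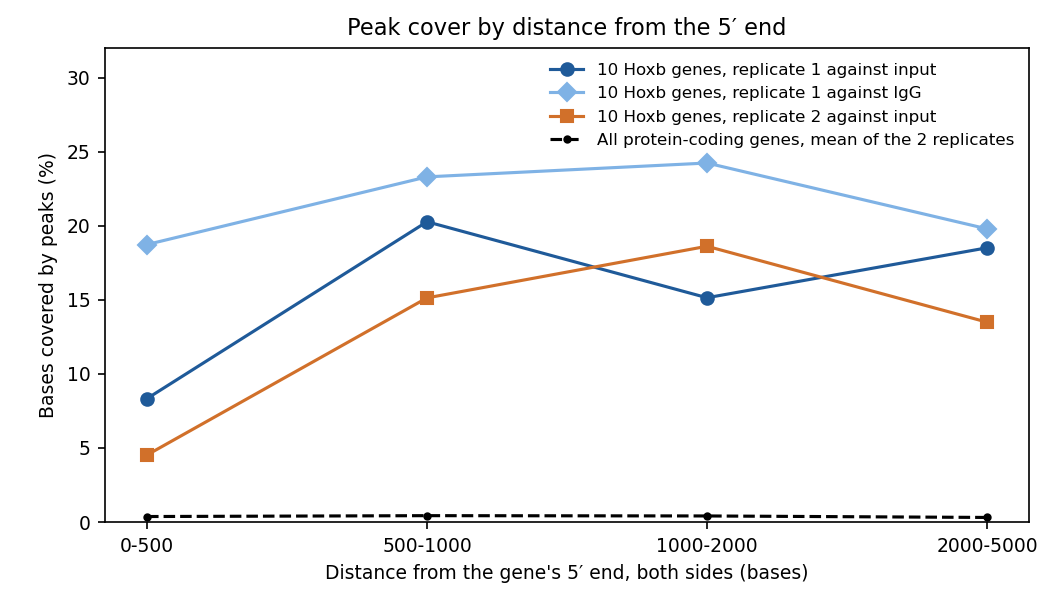
Covered share by distance from the 5′ end, in percent, summed over both sides and over the 10 Hoxb genes, for each list, with all protein-coding genes as a dashed line. The 2 input-called lists start at 8.33% and 4.53% within 500 bases and stay above 13% from 500 bases on, and the IgG-called list stays above 18%.

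Base composition moved with this distance. The CpG observed over expected ratio around the Hoxb 5′ ends was 0.573 within 500 bases, 0.431 from 500 to 1000 bases, 0.419 from 1000 to 2000 bases and 0.412 from 2000 to 5000 bases. The promoters differed among themselves, with a ratio within 1 kb of 0.702 at Hoxb5, 0.687 at Hoxb7 and 0.670 at Hoxb9, and of 0.231 at Hoxb3 and 0.176 at Hoxb2. The median of the 10 was 0.481, compared with 0.474 over all protein-coding genes. The part of base composition in the cover was not tested.

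Overlap between the replicates was counted peak by peak. Of the 116 peaks of replicate 1 against input, 26 shared at least 1 base with a peak of replicate 2, which is 22.4% with a 95% Wilson interval of 15.8% to 30.8%, compared with 2.85% over the genome. In the other direction 25 of 79 peaks did so, which is 31.6% with an interval of 22.4% to 42.5%, compared with 1.90%. Peaks also lay far closer together here, since replicate 2 covered 9.56% of the region and 0.245% of the genome, and the part of this density in the overlap was not tested. The bases in peaks of both replicates numbered 4370, 16.2% of the bases of replicate 1 and 20.4% of those of replicate 2. Of the 116 peaks, 95 were also met by a peak of the IgG list, which comes from the same H3K27me3 library.

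The region also holds noncoding genes. Gm53, a long noncoding gene upstream of Hoxb9 at chr11:96251105-96264868, had 18.3%, 15.5% and 7.18% of its bases covered, with 10, 12 and 5 peaks. Hoxb5os and Hoxb3os run antisense to Hoxb genes. Hoxb5os had 11.96%, 21.9% and 11.3% and Hoxb3os had 14.0%, 17.0% and 18.0%, and since peaks have no strand these cannot be told apart from the Hoxb genes they overlap.

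The 2 miRNA genes of the cluster, Mir196a-1 and Mir10a, make small RNAs that target Hox mRNAs among others. Their main mature products are shown, with sequences and positions from RefSeq GRCm38.p6 and the seed, bases 2 to 8, in capitals, because they are the short RNA products of the cluster.
mmu-miR-196a-5p, chr11:96265187-96265208, + strand: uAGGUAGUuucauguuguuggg
mmu-miR-10a-5p, chr11:96317186-96317208, + strand: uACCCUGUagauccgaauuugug

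The seeds of the 2 differ. Neither hairpin gene was touched by a peak in any list. The peak nearest to the 5′ end of Mir196a-1 lay 253 bases before it in the replicate 1 list, 298 bases before it in the IgG list and 1279 bases after it in replicate 2. For Mir10a the distances were 1170 bases before, 1041 bases after and 2000 bases after. At 102 and 110 bases, both genes are shorter than the median distance between peaks of the region.

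The other Hox clusters were measured in the same way, each with 25 kb on both sides. Their covered shares were 10.8% ± 1.74 (SD, n = 2) for Hoxa, 8.26% ± 3.72 for Hoxc and 8.79% ± 0.107 for Hoxd, beside 10.8% ± 1.78 for Hoxb. Hoxb differed by more than the larger SD from Hoxd and not from Hoxa or Hoxc. Gene by gene, a Hoxb gene had the highest mean covered share in 7 of the 10 paralogue groups, the sets of genes of the same number. The lead over the next gene was larger than either SD for Hoxb2 over Hoxa2, at 13.0 percentage points, Hoxb8 over Hoxc8, at 7.71, and Hoxb5 over Hoxa5, at 1.73.

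The 5 protein-coding genes outside the region whose covered shares in the 3 lists lay nearest to the median of the Hoxb genes, by Euclidean distance, were Emx2 (2.83 percentage points), Hoxa13 (3.31), Hoxa3 (4.18), Vax1 (4.85) and Gm28308 (4.88), a gene model that overlaps Hoxa3. All but the last encode homeobox proteins, and Emx2 and Vax1 are known from the forebrain. Emx2, on chromosome 19, had covered shares of 16.1%, 20.1% and 11.3%. The likeness is over 3 lists, of which 2 share a H3K27me3 library.

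Genes that act upstream of Hox genes or beside their products were counted from a list of 22, among them Cdx, Meis, Pbx and Pknox factors, Gbx2 and genes of retinoic acid signalling. Of the 22, 2 had a promoter peak in each of the replicates, Cdx1 and Gbx2, compared with 1.04% of all protein-coding genes. Gbx2, which helps to set the border of midbrain and hindbrain, had a covered share of 11.8% in the replicate 1 list, 10.7% in the IgG list and 15.8% in replicate 2. Cdx1, an activator of trunk Hox genes, had 1.54%, 1.23% and 2.90%. The median of the mean covered share over the 22 was 0.372%, against 0% over all protein-coding genes, and 3 of the 22 had no peak within 5 kb in either replicate. The share of all protein-coding genes with no such peak is not given here, but their median of 0% puts it higher.

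Markers of the tissue were counted in the same way. Of 7 genes of the dental mesenchyme, Pax9 alone had a peak within 1 kb in both replicates, and of 6 genes of the dental epithelium none had. Over all protein-coding genes the share was 1.04%, and at a share this low, lists of so few genes say little. A histone mark does not measure expression, so these counts do not test the dissection.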

How the data were processed

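ChIP-seq libraries were grouped by the antibody and title given in the labels. Per the methods and labels, the authors aligned reads to GRCm38 (mm10) with BWA, kept uniquely mapped reads, sorted them with SAMtools and called broad peaks with MACS2 (version 2.1.1.20160309, p-value cutoff 0.005). Partek is also named in the submitters' notes, without its role. The authors deposited for each peak the pileup, a signal scaled between libraries, the fold enrichment, a ratio over the control, and a −log10 p-value. The broadPeak and gappedPeak copies of the lists were not used. Per the file headers, tags were extended to 46 bases in replicate 1 and 71 bases in replicate 2, shorter than the tags themselves. The effect of this on peak length was not tested.

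Peaks of the 3 lists were intersected with GENCODE M21 genes and RefSeq GRCm38.p6 sequence in Python 3.11.15 with NumPy 2.4.6, SciPy 1.17.1 and Matplotlib 3.10.9. A gene's 5′ end is its outermost annotated start. The covered share was computed over gene bodies with 5 kb on each side, promoters were 1 kb on each side of the 5′ end, and overlap was at least 1 base. Interval functions were tested on simulated data. Named were all 10 Hoxb genes, the 3 nearest protein-coding genes on each side, noncoding genes of the region, members of the lists with a peak in both replicates, and the 5 genes of nearest pattern. Members and lists were chosen with earlier results of these data known. With 2 H3K27me3 libraries of 1 group no test was run, and Wilson intervals (95%) cover counting error only. Alternatives were stricter peak thresholds, an equal number of peaks, the IgG control, other promoter, flank and overlap definitions, and leaving out each replicate.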

Additional observations from a re-analysis of the deposited data

How the results depend on the processing

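Stricter thresholds only remove peaks, so they can only lower the promoter count, the number of peaks and the covered shares given next. The overlapped share could have moved either way, and the cause of its fall was not tested. At a fold enrichment of 3 or more, the number of Hoxb promoters with a peak in both replicates fell from 9 to 1, Hoxb8 (0.00912% of all genes), the mean number of peaks in the region was 10.5, the covered share 1.12% for the region, 1.37% for the stretch from Hoxb13 to Hoxb9 and 1.38% for the median gene, and the overlapped share of replicate 1 peaks 5.88%. At a −log10 p of 3 or more these were 1, again Hoxb8 (0.0273% of all genes), 12.5 peaks, 1.10%, 1.10%, 1.68% and 12.5%. Promoters of 500 bases on each side left 1, Hoxb7. The overlapped share was 15.5% when at least 50% of a replicate 1 peak had to be covered and 72.4% within 1 kb. Allowing a distance can only raise this share, and replicate 2 peaks of the region lay a median of 1612 bases apart.

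Leaving out each replicate gave 9 to 10 promoters, 79 to 116 peaks, and covered shares of 9.56% to 12.1% for the region, 4.65% to 9.13% for the stretch from Hoxb13 to Hoxb9 and 13.4% to 17.3% for the median gene. An equal number of peaks and the IgG control left these values within the replicate spread, the promoter count at 9 and 10, and the overlapped share within its Wilson interval. For single genes, the mean covered share of all 10 moved lower under both stricter thresholds, 3 moved higher and 1 lower with the IgG control, and 1 moved higher (Hoxb4) and 5 lower with gene bodies alone, among them Hoxb13 at 9.74%. With an equal number of peaks 2 moved lower, Hoxb2 and Hoxb3. No paired analysis was possible because the results come from peak lists called within each replicate and from no test. Most peaks rest on few tags, which limits the position of any single peak.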

Other observations

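In 2 genes of the list of Hox regulators, chosen after their values were seen, the replicates differed in full. Cyp26a1 and Cyp26c1, neighbours on chromosome 19 that encode enzymes which break down retinoic acid, had covered shares of 7.63% and 8.78% in replicate 1 against input and 8.57% and 11.1% against IgG, and no peak within 5 kb in replicate 2.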
